A study of Mus musculus with 22 samples.

Results

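The transcripts described here are 10 genes of T and NK cells, measured in lung epithelial cells (ECs) that had been sorted away from leukocytes: Cd3d, Cd3e, Cd3g, Cd4, Cd8a, Lck, Nkg7, Gata3, Il13 and Il5. The genes were taken as a named list, without a threshold on their values, from 54373 genes listed in the count tables, and all 10 were found among the 21793 protein-coding genes. The series holds bulk RNA-seq of 22 mouse libraries from live CD45-CD31-EpCAM+ singlets, CD45 being the leukocyte antigen used to remove blood cells and EpCAM an epithelial adhesion molecule used to keep ECs. The exclusion of CD31 is given in the paper's results, while its methods text names CD45 and EpCAM. At steady state (labelled naive) there were 4 wildtype (WT) libraries, 3 labelled AhR-/- and 3 labelled CYP1B1-/-. After house dust mite (HDM) sensitization there were 4 libraries of each genotype. All mice were on a C57BL/6 background and older than 7 weeks. The HDM mice were sacrificed 72 h after the last intranasal instillation of Dermatophagoides farinae extract. AhR is the aryl hydrocarbon receptor, a ligand-activated transcription factor, and CYP1B1 an enzyme of the cytochrome family that it induces. No driver is named that would restrict either knockout to ECs. No label says whether a library came from 1 mouse or from several, so the p-values below measure the spread between libraries.

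T cells recognize antigen through a receptor whose variable chains are held at the surface by the CD3 chains, which carry the signal inward to the kinase Lck. CD4 and CD8 are the coreceptors that divide T cells into helper and cytotoxic lineages. In allergic airways, helper T cells and innate lymphoid cells that depend on the transcription factor GATA3 release IL-5, which sustains eosinophils, and IL-13, which drives mucus production.

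Total counts ranged from 9654820 to 17878400 per library, but 6 dominant predicted genes took between 0.0106% and 88.2% of them. Protein-coding counts outside these genes ranged from 7218690 to 14120900 at steady state and from 1180756 to 16447900 after HDM, and 3 counts, taken here as the floor, equalled between 0.138 and 0.213 CPM (counts per megacount of effective library size) at steady state and between 0.107 and 1.36 CPM after HDM. Epcam was counted at 68.2 to 312 CPM over all libraries. Ptprc, which encodes CD45, was counted at 2.02 to 52.6 CPM at steady state and at 14.8 to 669 CPM after HDM. Ahr lay at 12.8 to 25.5 CPM in AhR-/- HDM libraries against 9.62 to 20.0 CPM in WT HDM libraries, and Cyp1b1 at 4.98 to 13.5 CPM in the HDM libraries labelled CYP1B1-/- against 0.897 to 2.31 CPM in WT, so that counts over the whole gene showed no loss of either target. These counts do not check a deletion of part of the gene, so AhR-/- and CYP1B1-/- below stand for the libraries labelled so. The 2 states were counted in separate tables. The Y-linked gene Ddx3y lay at 19.7 CPM or above in all 10 steady-state libraries and in 2 of 12 HDM libraries, replicates 3 and 4 of those labelled AhR-/-, and at 0.0859 CPM or below in the other 10. State, table and, outside those 2 libraries, Y-linked reads cannot be told apart.

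Cd3d, Cd3e and Cd3g lie together on chromosome 9 (GRCm38). Cd3g (44969572 to 44980431, minus strand) and Cd3d (44981786 to 44987339, plus strand) point away from each other with 1355 bases between their starts, and Cd3e (44998740 to 45009627, minus strand) follows. Their promoter windows from the RefSeq table (GRCm38.p6, 250 bases before to 50 after the start, given 5′ to 3′ on each gene's own strand) are shown because Cd3d and Cd3g passed the test after HDM in every genotype and Cd3e in none. Capitals mark the E-box CACCTG, a motif of the E-protein family that acts in lymphocyte development, and the GATA motif AGATAA, each searched on both strands.
Cd3d, chr9:44981536-44981835, plus strand: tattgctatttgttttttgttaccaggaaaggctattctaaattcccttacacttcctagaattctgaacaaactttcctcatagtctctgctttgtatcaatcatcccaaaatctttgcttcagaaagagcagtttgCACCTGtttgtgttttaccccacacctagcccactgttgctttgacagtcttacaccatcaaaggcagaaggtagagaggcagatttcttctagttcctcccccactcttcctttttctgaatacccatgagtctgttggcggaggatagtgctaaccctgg
Cd3g, chr9:44980382-44980681, minus strand: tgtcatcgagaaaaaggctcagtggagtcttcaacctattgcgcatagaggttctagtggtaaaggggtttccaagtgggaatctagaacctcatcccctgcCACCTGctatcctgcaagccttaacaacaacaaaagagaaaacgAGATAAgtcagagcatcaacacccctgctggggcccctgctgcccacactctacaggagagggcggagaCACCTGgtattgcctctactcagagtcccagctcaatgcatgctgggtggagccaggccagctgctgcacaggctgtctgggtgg
Cd3e, chr9:45009562-45009861, minus strand: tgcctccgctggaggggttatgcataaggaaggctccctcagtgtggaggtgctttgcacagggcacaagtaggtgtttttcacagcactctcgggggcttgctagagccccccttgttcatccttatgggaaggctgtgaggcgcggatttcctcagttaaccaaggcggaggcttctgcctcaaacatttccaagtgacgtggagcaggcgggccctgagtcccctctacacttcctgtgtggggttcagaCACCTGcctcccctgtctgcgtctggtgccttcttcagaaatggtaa
The E-box letters occurred once in the Cd3d window, starting 112 bases before the start site, at 148 and 35 bases before it in the Cd3g window, and 3 bases after it in the Cd3e window. The GATA letters occurred in the Cd3g window alone of these 3. Of all 32851 windows of 300 bases in the table, 20.2% held CACCTG and 11.2% held AGATAA on either strand. The motifs were chosen after the windows had been read, do not overlap each other, and a match is a description of letters.

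Transcripts of 6 of the 10 genes were higher in HDM libraries than at steady state in all 3 genotypes. Of the 8 genes with enough counts to be tested, 6 (Cd3d, Cd3g, Lck, Cd4, Cd8a and Nkg7) were higher after HDM in WT, in the libraries labelled AhR-/- and in those labelled CYP1B1-/-, with log2 fold changes from 2.16 to 5.00. The highest, that of Nkg7 in AhR-/-, was set against 1 to 3 counts per steady-state library and depends on the prior count of the fit. Only Cd3g and Lck of these 6 also passed the filter on low counts among the steady-state libraries alone, while Cd3d, Cd4, Cd8a and Nkg7 passed it through their HDM libraries. Cd3e and Gata3 did not pass the test in any genotype. Il13 and Il5 had too few counts to be tested in the main fits. In bulk samples, fewer cells of a type and less RNA per cell cannot be told apart.

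**Figure D1:**
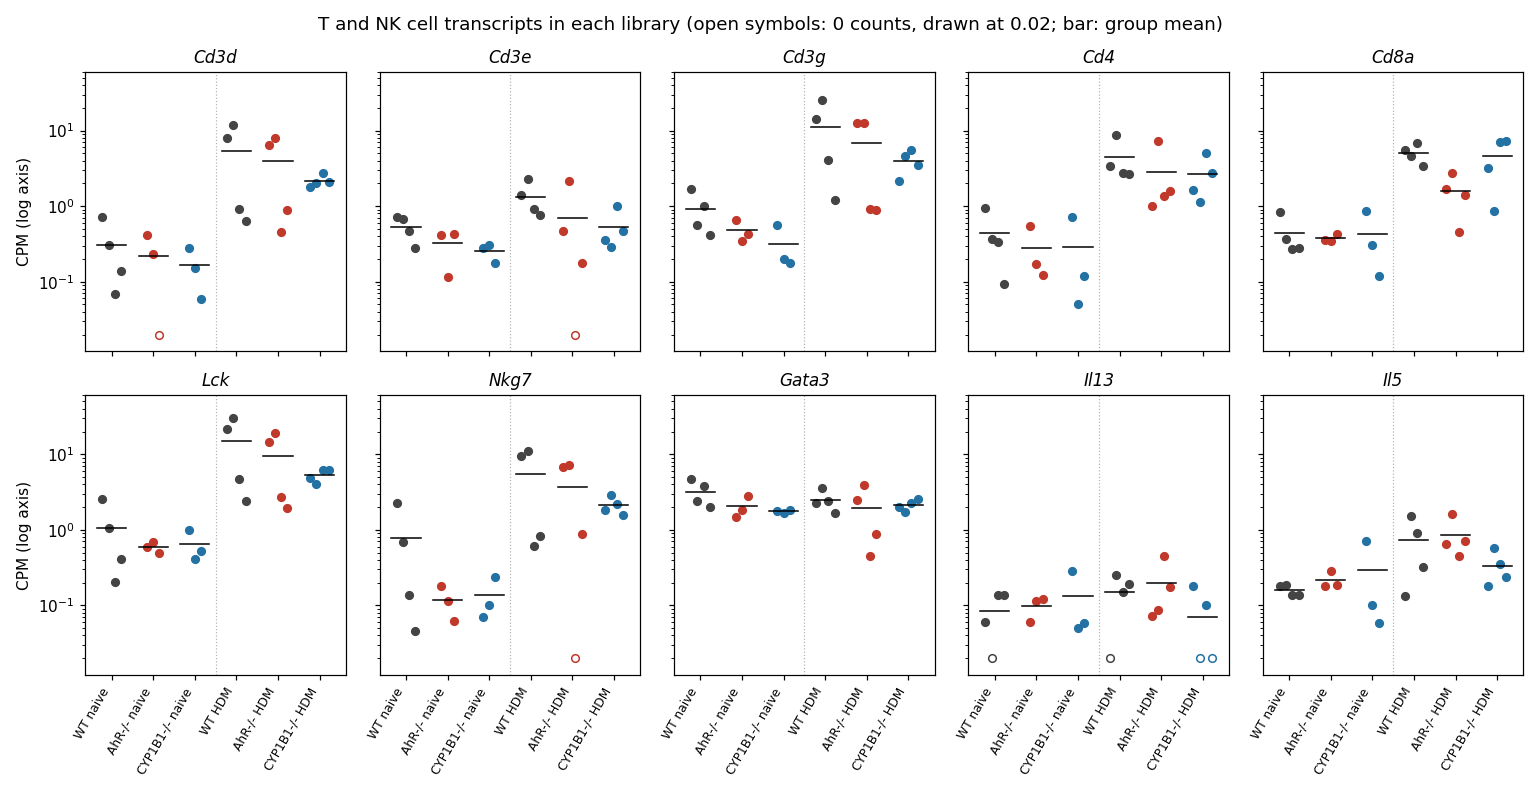
Level of each of the 10 genes (CPM, log axis) in each of the 22 libraries, grouped by genotype and state; 1 point is 1 library, bars are group means, and open points are libraries with 0 counts, drawn at 0.02. Cd3d, Cd3g, Lck and Nkg7 split the HDM libraries of WT and AhR-/- into a high and a low pair, Gata3 stays at a like level in both states, and Il13 stays at or under 0.455 CPM.

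Cd3d and Cd3g encode the CD3 delta and gamma chains. Cd3d was counted at 8.07, 11.9, 0.913 and 0.641 CPM in WT HDM replicates 1 to 4 and at 0.716, 0.309, 0.0677 and 0.138 CPM in WT at steady state. In the libraries labelled AhR-/-, it was counted at 6.38, 7.99, 0.455 and 0.884 CPM after HDM and at 0.419, 0.230 and 0 CPM at steady state. In those labelled CYP1B1-/-, it was counted at 1.80, 2.02, 2.77 and 2.11 CPM after HDM and at 0.284, 0.152 and 0.0589 CPM at steady state. The HDM libraries of WT and of AhR-/- thus each fell into a high pair (replicates 1 and 2) and a low pair (replicates 3 and 4), whereas those of CYP1B1-/- lay close together. Cd3d rose by a log2 fold change of 4.06 (SE 0.95, adjusted p = 0.00165, edgeR quasi-likelihood test) in WT, 4.24 (SE 1.10, adjusted p = 0.00983) in AhR-/- and 3.71 (SE 1.13, adjusted p = 0.0135) in CYP1B1-/-.

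Cd3g showed the same division of libraries at a higher level. It was counted at 14.4, 25.1, 4.11 and 1.22 CPM in WT HDM replicates 1 to 4, and at 0.414 to 1.67 CPM in WT at steady state. In the libraries labelled AhR-/-, it was counted at 12.5, 12.7, 0.910 and 0.884 CPM after HDM, and at 0.345 to 0.659 CPM at steady state. In those labelled CYP1B1-/-, it was counted at 2.16, 4.61, 5.54 and 3.51 CPM after HDM, and at 0.177 to 0.567 CPM at steady state. Cd3g rose by 3.59 (SE 0.83, adjusted p = 0.00166), 3.90 (SE 0.98, adjusted p = 0.00834) and 3.67 (SE 1.02, adjusted p = 0.00738) on the log2 scale in WT, AhR-/- and CYP1B1-/-. Only the HDM and steady-state ranges of WT overlapped, since WT HDM replicate 4 lay below WT steady-state replicate 1.

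Lck, the kinase that phosphorylates the CD3 chains, had the most counts of the 10 genes in WT after HDM, 674 over the 4 libraries. It was counted at 21.7, 30.4, 4.72 and 2.44 CPM in WT HDM replicates 1 to 4, at 14.4, 19.1, 2.73 and 1.94 CPM in AhR-/- HDM libraries and at 4.87, 4.03, 6.19 and 6.15 CPM in those labelled CYP1B1-/-. The steady-state libraries lay between 0.203 and 2.57 CPM, and WT HDM replicate 4 and AhR-/- HDM replicate 4 lay below the highest of them. Its log2 fold changes were 3.78 (SE 0.80, adjusted p = 7.34e-04) in WT, 4.06 (SE 0.94, adjusted p = 0.00523) in AhR-/- and 3.08 (SE 0.91, adjusted p = 0.0116) in CYP1B1-/-.

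Nkg7 encodes a granule protein of NK cells and cytotoxic T cells. It was counted at 9.51, 11.2, 0.609 and 0.833 CPM in WT HDM replicates 1 to 4, at 6.77, 7.21, 0 and 0.884 CPM in AhR-/- HDM libraries and at 1.80, 2.88, 2.21 and 1.58 CPM in those labelled CYP1B1-/-. At steady state it reached 2.27 CPM in WT replicate 1 and lay between 0.0460 and 0.679 CPM in the other 9 libraries. The low HDM pairs of WT and AhR-/- and CYP1B1-/- HDM replicates 1, 3 and 4 thus lay below the highest steady-state library of WT. Nkg7 rose by 2.79 (SE 0.98, adjusted p = 0.0278) in WT, 5.00 (SE 1.33, adjusted p = 0.0114) in AhR-/- and 3.83 (SE 1.30, adjusted p = 0.0263) in CYP1B1-/- on the log2 scale. In WT this call was lost without any one of 5 libraries, HDM replicate 1 or 2 or steady-state replicate 2, 3 or 4, with log2 fold changes of 2.23 to 2.74.

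The coreceptors were arranged differently. Cd4 was counted at 3.41, 8.88, 2.74 and 2.63 CPM in WT HDM replicates 1 to 4, at 1.00, 7.39, 1.36 and 1.59 CPM in AhR-/- HDM libraries and at 1.62, 1.15, 4.98 and 2.75 CPM in those labelled CYP1B1-/-. All 10 steady-state libraries, at 0.0507 to 0.955 CPM, lay below every HDM library. Its log2 fold changes were 3.28 (SE 0.79, adjusted p = 0.00199), 3.37 (SE 0.91, adjusted p = 0.0122) and 3.29 (SE 0.91, adjusted p = 0.00688) in WT, AhR-/- and CYP1B1-/-.

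Cd8a was counted at 5.61, 4.57, 6.85 and 3.40 CPM in WT HDM replicates 1 to 4, at 1.68, 2.75, 0.455 and 1.41 CPM in AhR-/- HDM libraries and at 3.25, 0.865, 7.10 and 7.38 CPM in those labelled CYP1B1-/-. Steady-state levels lay between 0.118 and 0.851 CPM. The 4 WT HDM libraries lay close together for Cd8a, whereas their Cd3d levels spread from 0.641 to 11.9 CPM. Its log2 fold changes were 3.52 (SE 0.60, adjusted p = 7.72e-05), 2.16 (SE 0.67, adjusted p = 0.0254) and 3.53 (SE 0.68, adjusted p = 2.97e-04) in WT, AhR-/- and CYP1B1-/-.

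Cd3e encodes the CD3 epsilon chain, which pairs with both delta and gamma in the receptor, and it passed in no genotype. It was counted at 1.39, 2.28, 0.913 and 0.769 CPM in WT HDM replicates 1 to 4, at 0.466, 2.15, 0 and 0.177 CPM in AhR-/- HDM libraries and at 0.361, 0.288, 1.01 and 0.469 CPM in those labelled CYP1B1-/-. Steady-state levels, between 0.115 and 0.716 CPM, overlapped those after HDM in AhR-/- and CYP1B1-/-. The log2 fold changes of 1.26 (SE 0.68, adjusted p = 0.151), 1.32 (SE 0.78, adjusted p = 0.238) and 1.17 (SE 0.80, adjusted p = 0.300) in WT, AhR-/- and CYP1B1-/- did not pass the test, although all 4 WT HDM libraries lay above all 4 WT steady-state libraries.

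Gata3, the transcription factor of type 2 lymphocytes that is also transcribed in other tissues, was counted at like levels in both states. It lay at 2.24, 3.55, 2.43 and 1.67 CPM in WT HDM replicates 1 to 4 and at 4.65, 2.41, 3.79 and 1.98 CPM in WT at steady state, at 2.47, 3.95, 0.455 and 0.884 CPM against 1.50, 1.84 and 2.83 CPM in the libraries labelled AhR-/-, and at 1.98, 1.73, 2.26 and 2.52 CPM against 1.77, 1.67 and 1.83 CPM in those labelled CYP1B1-/-. Its log2 fold changes were -0.41 (SE 0.43, adjusted p = 0.488), 0.07 (SE 0.47, adjusted p = 0.936) and 0.30 (SE 0.47, adjusted p = 0.708). Exons of the opposite-strand gene Gm13256 and the same-strand gene 9230102O04Rik overlap 5.83% of its exon length.

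The cytokine transcripts stayed near the limit of detection. Il13 had 0 to 4 counts in every library and never passed 0.455 CPM. Il5 had 18 and 19 counts in HDM replicates 1 and 2 labelled AhR-/-, equal to 0.645 and 1.63 CPM, and at most 10 counts in any other library. It lay at 0.135, 1.52, 0.913 and 0.321 CPM in WT after HDM and at 0.180, 0.576, 0.352 and 0.234 CPM in the HDM libraries labelled CYP1B1-/-. HDM replicates 3 and 4 labelled AhR-/- held 1 and 4 counts, equal to 0.455 and 0.707 CPM. At steady state Il5 lay at 0.135 to 0.185 CPM in WT, 0.180 to 0.287 CPM in AhR-/- and 0.0589 to 0.709 CPM in CYP1B1-/-. Every AhR-/- HDM library thus lay above every AhR-/- steady-state library, 1 of them on a single count. In the shallowest library, HDM replicate 3 labelled AhR-/-, 1 count of either cytokine equalled 0.455 CPM. Neither gene passed the filter on low counts in the main fits, so no test between groups is given for them.

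**Figure D2:**
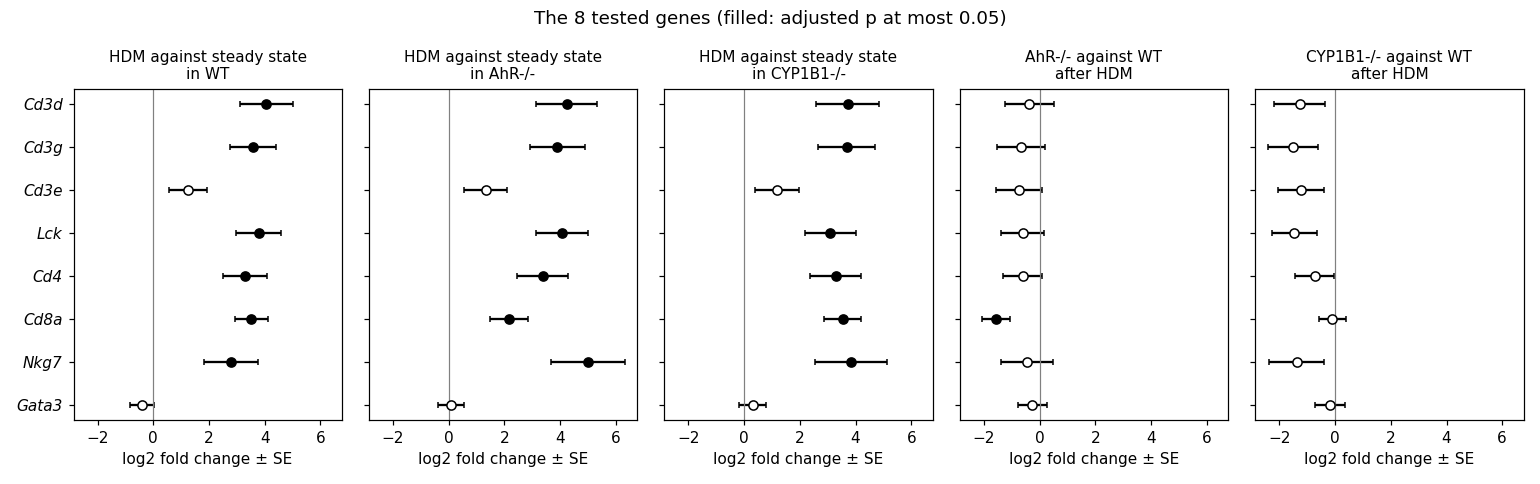
Log2 fold change (x axis, with its SE as the bar) of the 8 tested genes between HDM and steady state in each genotype and between each knockout label and WT after HDM; filled points passed an adjusted p of 0.05. The 6 filled points of each HDM comparison lie between 2.16 and 5.00, and Cd8a at -1.55 is the only filled point between genotypes.

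Set against all genes, 6 of 8 called members compare with a background of 38.4% of 16639 genes called in either direction and 19.0% called higher in WT, 20.6% and 10.6% in AhR-/-, and 33.4% and 15.5% in CYP1B1-/-. The median log2 fold change of the 8 tested members was 3.40, 3.64 and 3.41 in the 3 genotypes, beside -0.11, -0.05 and -0.02 over all genes tested. Every HDM library lay above every steady-state library for 3 of the 8 members in WT, 5 in AhR-/- and 6 in CYP1B1-/-, where 17.7%, 12.7% and 14.2% of all genes did. Of the 8, 5 (Cd3d, Cd3e, Cd4, Cd8a and Nkg7, of which 4 were called) passed the filter only through HDM libraries, where they were higher, so they had to differ and the counts and medians are no support for a rise of the list. Cd3g, Lck and Gata3 passed it in both states, and of these Cd3g and Lck were called.

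Replicates 3 and 4 labelled AhR-/- showed smaller differences from steady state than the whole group. When only the AhR-/- libraries with Y-linked reads were kept, that is HDM replicates 3 and 4 against all 3 at steady state, the 6 calls were lost in an edgeR fit that left out only AhR-/- HDM replicates 1 and 2. The log2 fold changes then ran from -1.48 for Gata3 to 2.38 for Cd4, with Cd3d at 1.70 (adjusted p = 0.534). Without HDM replicate 2 the calls for Cd4 (2.25, adjusted p = 0.0961) and Cd8a (1.87, adjusted p = 0.0712) were lost, and that of Cd8a also without steady-state replicate 1. Leaving out steady-state replicate 3 or 4 left 3 and 2 members called, and in CYP1B1-/- leaving out steady-state replicate 3 or 4 left 3 each.

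After HDM, libraries of WT and AhR-/- differed widely among themselves. The summed level of Cd3d, Cd3e and Cd3g was 23.9, 39.3, 5.93 and 2.63 CPM in WT replicates 1 to 4, 19.4, 22.8, 1.36 and 1.94 CPM in those labelled AhR-/- and 4.33, 6.92, 9.31 and 6.09 CPM in those labelled CYP1B1-/-. At steady state the sum lay between 0.412 and 3.10 CPM, with WT replicate 1 the highest. The 2 lowest HDM sums were those of the 2 AhR-/- libraries with Y-linked reads, which held 3 and 11 CD3 counts in all and were the first and the fifth lowest of the 22 libraries in coding counts outside the dominant predicted genes.

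The ratio of CD3 to CD45 transcripts varied widely between libraries. In HDM libraries the CD3 sum per 100 Ptprc counts was 5.47, 18.8, 0.931 and 0.720 in WT replicates 1 to 4, 12.0, 23.0, 4.92 and 13.1 in those labelled AhR-/- and 2.42, 26.4, 1.52 and 0.911 in those labelled CYP1B1-/-. At steady state the same ratio lay between 5.90 and 40.9. Ptprc itself rose by a log2 fold change of 4.47 (SE 0.99, adjusted p = 0.00112) in WT, 3.94 (SE 1.10, adjusted p = 0.0151) in AhR-/- and 6.54 (SE 1.25, adjusted p = 3.48e-04) in CYP1B1-/-. The HDM ratios, from 0.720 to 26.4, overlapped the steady-state ratios, and 5 HDM libraries lay above 10. Group medians were lower after HDM, at 3.20 against 19.7 in WT, 12.6 against 20.7 in AhR-/- and 1.97 against 18.4 in CYP1B1-/-.

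**Figure D3:**
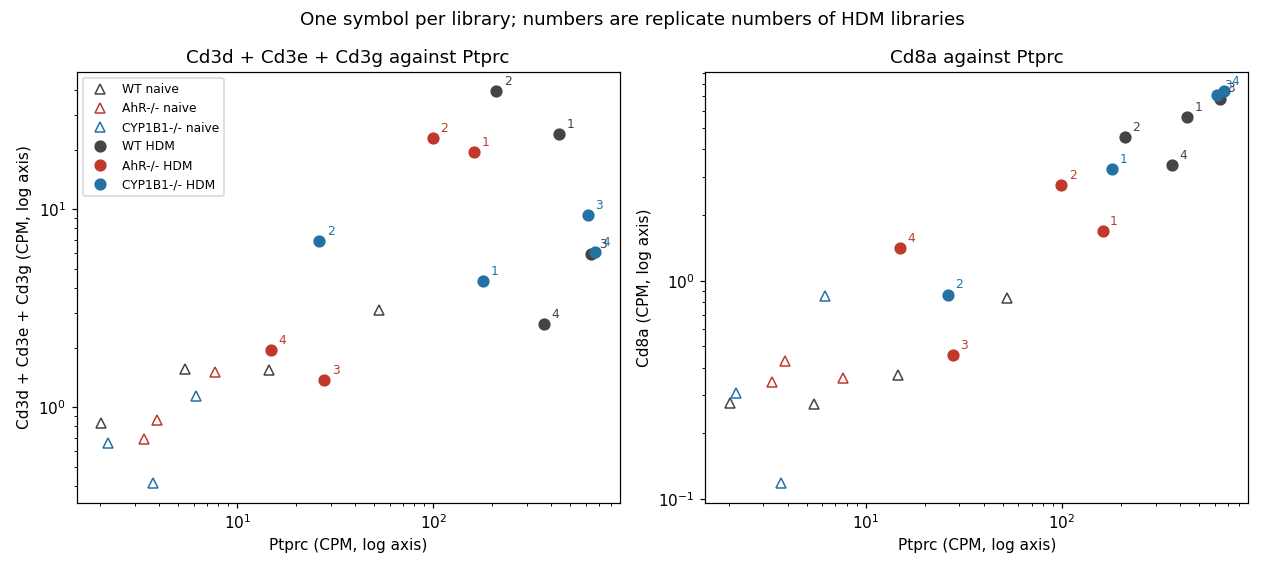
Summed level of Cd3d, Cd3e and Cd3g (left) and level of Cd8a (right) against the level of Ptprc, all in CPM on log axes, with 1 symbol per library (triangles naive, filled circles HDM, numbers the replicates). Among HDM libraries the CD3 sum is highest in WT replicate 2, at 39.3 CPM with Ptprc at 209 CPM, while Cd8a runs along Ptprc up to 7.38 CPM.

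Lat was the gene outside the list with the pattern most like that of the 3 CD3 genes. Over the 12 HDM libraries, the 6 non-member genes whose log2 CPM correlated best with the mean log2 CPM of Cd3d, Cd3e and Cd3g were Lat (Pearson r = 0.966), the adaptor that Zap70 phosphorylates downstream of CD3, Cxcr6 (0.963), a chemokine receptor of tissue-resident lymphocytes, Icos (0.930), a costimulatory receptor, Cd247 (0.925), which encodes the CD3 zeta chain, Il2rb (0.920), a chain of the IL-2 and IL-15 receptors, and Ms4a4b (0.911), a membrane protein of T and NK cells. Among the members, Lck (0.945) and Nkg7 (0.916) lay nearest, and Gata3 was at 0.880. Cd4 (0.666) and Cd8a (0.528) lay far behind, beside Epcam at 0.460 and Ptprc at 0.442. The next non-member was Ldb1 (0.908), a transcription cofactor found in many tissues, and genes not particular to lymphocytes such as Pdcd4 (0.877) and Banp (0.870) followed. The points share library depth, and no test was made of these correlations.

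Cd8a lay nearer to other genes. Over the same 12 libraries its log2 CPM correlated with Ptprc at r = 0.900 and with Itgae, an integrin of resident T cells and of a subset of dendritic cells, at 0.921, but with Lck at 0.386 and with Cd8b1, which encodes the beta chain of the CD8 coreceptor of cytotoxic T cells, at 0.218. Cd8b1 correlated with the CD3 mean at 0.836. In mice Cd8a is also transcribed in a subset of dendritic cells, so Xcr1 and Flt3, 2 receptors of dendritic cells that were chosen after their values had been seen, were read in the same libraries. Their correlations with Cd8a were 0.916 and 0.926, and with the CD3 mean 0.503 and 0.422. They were not the nearest genes, since Flt3 stood at rank 217, Itgae at 270, Xcr1 at 344 and Ptprc at 608 of 14160 genes by correlation with Cd8a.

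Xcr1 was counted at 157, 90.6, 175 and 87.6 CPM in WT HDM replicates 1 to 4, at 35.3, 10.1, 1.36 and 2.3 CPM in AhR-/- HDM libraries and at 82.1, 2.31, 200 and 84.2 CPM in those labelled CYP1B1-/-. All steady-state libraries lay between 0.298 and 1.06 CPM. The 4 AhR-/- libraries and CYP1B1-/- replicate 2 were the 5 HDM libraries lowest in Xcr1 and also the 5 lowest in Cd8a. Their part in the Cd8a counts was not tested.

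Pooled shares of Cd3e among the CD3 counts were smaller after HDM than at steady state, but single libraries overlapped. Pooled over libraries, Cd3e gave 58 of 767 CD3 counts in WT after HDM, a share of 7.56% (exact 95% binomial interval 5.79 to 9.67%), against 36 of 118, or 30.5% (22.4 to 39.7%), at steady state. In the libraries labelled AhR-/- the shares were 4.75% (3.40 to 6.44%) and 31.4% (19.1 to 45.9%). In those labelled CYP1B1-/- they were 9.20% (6.34 to 12.8%) and 36.1% (20.8 to 53.8%). The pooled intervals of the 2 states did not overlap in any genotype, but they cover counting error only, the reads carry no molecular identifiers, and WT HDM replicate 1 gave 532 of the 767 WT counts. In single WT HDM libraries the share was 5.83%, 5.81%, 15.4% and 29.3% in replicates 1 to 4, the last with an interval of 16.1 to 45.5%. The 4 WT steady-state libraries lay at 23.1%, 44.0%, 30.4% and 33.3%, so that WT HDM replicate 4 lay within their range. In AhR-/- and CYP1B1-/-, the HDM libraries lay between 0 and 10.8% and the steady-state libraries between 16.7% and 50%. Several of these rest on few counts, so that single-library intervals overlapped. The 0% of AhR-/- HDM replicate 3 was 0 of 3 counts (0 to 70.8%), and the 16.7% of AhR-/- steady-state replicate 3 was 2 of 12 (2.09 to 48.4%). Exons of the opposite-strand gene Gm48719 overlap 3.31% of the Cd3e exon length, and no strand setting of the counting is given in the sources used here.

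**Figure D4:**
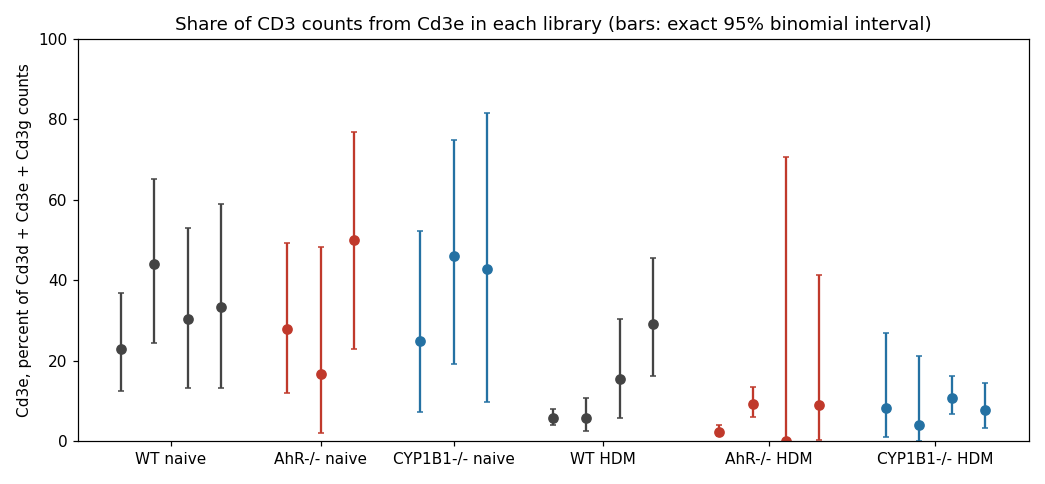
Percent of the Cd3d, Cd3e and Cd3g counts that came from Cd3e in each library, grouped by genotype and state, with exact 95% binomial intervals as bars. The pooled shares are 4.75 to 9.20% in the HDM groups and 30.5 to 36.1% in the naive groups, while WT HDM replicate 4, at 29.3%, lies among the naive libraries.

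Per kilobase of exon, the order of the mean levels in WT after HDM was Nkg7 (6.05 CPM per kb), Lck (5.07), Cd3g (3.43), Cd3d (2.97), Cd8a (1.40), Cd4 (1.09), Gata3 (0.622), Il5 (0.470), Cd3e (0.328) and Il13 (0.124). The SD over the 4 libraries nearly equalled the mean for Nkg7 (5.59 against 5.53 CPM), Lck (13.5 against 14.8 CPM), Cd3g (10.9 against 11.2 CPM) and Cd3d (5.55 against 5.39 CPM). The order came from the high pair. Cd8a was the highest of the 10 genes per kilobase in replicates 3 (1.88 CPM per kb) and 4 (0.934), where Nkg7 stood at 0.666 and 0.912 and Lck at 1.61 and 0.832, whereas Nkg7 (10.4 and 12.2) and Lck (7.43 and 10.4) led in replicates 1 and 2. The order was not tested. Cd3e lay between Il5 and Il13 per kilobase, but with 58 counts over the 4 libraries against 20 and 5 for the cytokines. The length used was that of all annotated exons of a gene merged, 4080 bases for Cd3e against 1815 for Cd3d, so the order also depends on the annotation.

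The constant chains of the T cell receptor lie outside the protein-coding class of the annotation and were read as levels alone. Trac, the alpha constant chain, was counted at 10.3, 19.5, 6.09 and 3.91 CPM in WT HDM replicates 1 to 4, at 7.70, 13.1, 6.82 and 0.530 CPM in AhR-/- HDM libraries and at 4.33, 5.19, 6.14 and 5.56 CPM in those labelled CYP1B1-/-. Steady-state libraries held 0.804 to 1.91 CPM. Trbc2, a beta constant chain, was counted at 12.3, 12.9, 1.37 and 1.09 CPM in WT after HDM and at 5.55, 11.8, 0.455 and 0.884 CPM in the HDM libraries labelled AhR-/-, the same high and low pairs as Cd3d. HDM replicate 3 labelled AhR-/- had 15 Trac counts beside 1 Trbc2 count and 0 Trbc1 counts. Trdc, the delta constant chain, had 0 to 23 counts in every library.

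Between genotypes after HDM, Cd8a was the only member that passed. It was lower in the libraries labelled AhR-/- than in WT by a log2 fold change of -1.55 (SE 0.50, adjusted p = 0.0440), and all 4 AhR-/- libraries lay below all 4 WT libraries. That is 1 of 8 tested members, where 22.1% of 14161 genes were called in either direction and 12.9% lower. The call was lost without any one of 7 of the 8 libraries compared, that is all but AhR-/- replicate 2, with log2 fold changes from -1.39 to -1.68 and adjusted p from 0.0613 to 0.139. It was also lost when only libraries without Y-linked reads were kept (-1.24, adjusted p = 0.261). Xcr1 and Flt3 were called lower in the same comparison, by -3.34 (SE 1.01, adjusted p = 0.0382) and -4.04 (SE 1.02, adjusted p = 0.0268), and Ptprc had a log2 fold change of -2.44 (SE 0.83, adjusted p = 0.0519). The 3129 genes called in this comparison became 0 with only libraries without Y-linked reads and 0 without any one of AhR-/- replicates 1, 3 and 4 and WT replicates 3 and 4. The subset without Y-linked reads leaves 2 AhR-/- libraries, and in it Xcr1 was at -2.51 (adjusted p = 0.239) and Flt3 at -3.25 (adjusted p = 0.205).

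The other 7 members had log2 fold changes between -0.74 for Cd3e (SE 0.82, adjusted p = 0.544) and -0.26 for Gata3 (SE 0.53, adjusted p = 0.770) in the same comparison. Lck was at -0.61 (SE 0.77, adjusted p = 0.602) and Cd3d at -0.36 (SE 0.88, adjusted p = 0.805). The median over the 8 members was -0.61, beside -0.00175 over all genes. For 6 of the 7 the direction hung on a single library, since without WT replicate 2 Cd3d moved to 0.48, Cd3g to 0.25, Lck to 0.16, Nkg7 to 0.23, Cd4 to 0.06 and Gata3 to 0.04, while Cd3e stayed negative at -0.32. With only libraries without Y-linked reads, Cd3d was at 0.38 and Lck at 0.12.

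In the HDM libraries labelled CYP1B1-/-, 0 of the 8 tested members passed by edgeR, by its likelihood ratio test or by DESeq2, and 0 had an unadjusted p under 0.05. The edgeR background was 0% of 14161 genes, with 233 genes at an unadjusted p under 0.05. Log2 fold changes against WT ran from -1.51 for Cd3g (SE 0.91) to -0.09 for Cd8a (SE 0.47), with Lck at -1.46 (SE 0.80), Nkg7 at -1.37 (SE 0.99) and Cd3d at -1.28 (SE 0.92), each at adjusted p = 0.999. The CYP1B1-/- libraries lay between the high and the low WT pair for Cd3d and Nkg7. The comparisons of the 2 knockout labels share their WT libraries.

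At steady state only Cd3g, Lck and Gata3 had enough counts to be tested. Against WT, 0 of these 3 passed in the libraries labelled AhR-/- by edgeR, its likelihood ratio test or DESeq2, with 0 at an unadjusted p under 0.05 and a background of 0% of 15547 genes (263 at an unadjusted p under 0.05). In those labelled CYP1B1-/-, 0 of 3 passed by the same tools, 2 had an unadjusted p under 0.05 in edgeR, and the background was 0.0129% of 15547 genes (901 at an unadjusted p under 0.05). Those 2 were Cd3g, at a log2 fold change of -1.64 (SE 0.65, adjusted p = 0.822), and Gata3, at -0.95 (SE 0.37, adjusted p = 0.822). All 3 CYP1B1-/- libraries lay below all 4 WT libraries for Gata3. WT replicate 1 held the highest steady-state level of Cd3d, Cd3e, Cd3g, Cd4, Lck, Nkg7 and Gata3, with Ptprc at 52.6 CPM, and without it the log2 fold change of Lck turned from -0.88 to 0.09 in AhR-/- and from -0.83 to 0.14 in CYP1B1-/-.

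An interaction of genotype and state, fitted on the 22 libraries together, asked whether the difference between states itself differed between genotypes. For the libraries labelled AhR-/-, 0 of the 8 members passed by edgeR, its likelihood ratio test or DESeq2, 0 had an unadjusted p under 0.05, and the edgeR background was 0% of 16639 genes, with 3050 at an unadjusted p under 0.05. The interaction of Cd8a was -1.35 (SE 0.88, adjusted p = 0.433) and that of Nkg7 was 2.21 (SE 1.58, adjusted p = 0.488) on the log2 scale. For those labelled CYP1B1-/-, 0 of 8 passed by the same tools, with 0 at an unadjusted p under 0.05 and a background of 0%, with 382 genes at an unadjusted p under 0.05.

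Other genes of T cells rose in part. Of 23 tested genes of a list for the T cell receptor complex and its signalling, which holds Cd8b1 but none of the 10 members, 13 were higher and 1 lower after HDM in WT, 10 and 0 in AhR-/-, and 9 and 0 in CYP1B1-/-, with median log2 fold changes of 1.85, 1.89 and 1.55, where 19.0%, 10.6% and 15.5% of all genes were called higher. These shares of all genes also stand beside the HDM counts of the lists below, and how the list counts in AhR-/- change when only Y-linked libraries are kept was not tested. Part of each list of T, NK and type 2 genes, and of the macrophage, eosinophil and B cell lists, passed the filter only through HDM libraries. Calls of those genes are no support for a rise. All tested pan-leukocyte and neutrophil genes passed the filter at steady state too. Of the 13, 10 and 9 genes called higher here, 8, 6 and 6 also passed it among the steady-state libraries, of 18 that did. Cd6, a receptor that tunes T cell activation, was at 4.47 (SE 0.67, adjusted p = 2.3e-05) in WT and Lat at 3.61 (SE 0.83, adjusted p = 0.00145), both among the genes that passed through HDM libraries alone. After HDM, 1 of the 23 was called lower in AhR-/- than in WT, where 12.9% of all genes were. This was Grap2, an adaptor that binds the phosphoprotein Lcp2, at -1.95 (SE 0.51, adjusted p = 0.0278), and at -1.39 (adjusted p = 0.210) without Y-linked libraries.

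Of 16 tested NK and cytotoxic genes, 8 were higher after HDM in WT, 6 in AhR-/- and 7 in CYP1B1-/-, and 0 lower. Of these, 6, 4 and 5 also passed the filter at steady state, of 11 that did. Klrd1, which encodes the CD94 receptor chain, rose by 6.60 (SE 1.05, adjusted p = 5.12e-05) in WT. Tyrobp, a signalling adaptor shared by NK cells and myeloid cells, rose by 5.16 (SE 1.11, adjusted p = 8.88e-04) in WT. After HDM, 2 of 12 tested genes of the list were called lower in AhR-/- than in WT, near the 12.9% of all genes, Tyrobp at -2.62 (SE 0.79, adjusted p = 0.0377) and Tbx21, a transcription factor of type 1 lymphocytes, at -2.40 (SE 0.71, adjusted p = 0.0359).

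Of 14 tested genes of type 2 cytokines, Th2 cells and innate lymphoid cells, 5 were higher and 1 lower after HDM in WT, 3 and 0 in AhR-/-, and 6 and 1 in CYP1B1-/-. Of those called higher, 3, 1 and 4 also passed the filter at steady state, of 9 that did. The lower gene in WT was Rora, a nuclear receptor also transcribed in ECs, at -0.98 (SE 0.33, adjusted p = 0.0223). Il1rl1, the IL-33 receptor, was counted at 7.44 to 32.4 CPM in WT HDM libraries and at 2.12 to 3.51 CPM in AhR-/- HDM libraries, where its log2 fold change against WT was -2.73 (SE 0.66, adjusted p = 0.0261). Crlf2, a chain of the TSLP receptor, and Il2ra, the IL-2 receptor alpha chain, were also lower, at -2.83 (SE 0.66, adjusted p = 0.0261) and -2.23 (SE 0.49, adjusted p = 0.0261). In all, 4 of 13 tested genes of this list were called lower and 0 higher in AhR-/-, where 12.9% of all genes were called lower. With only libraries without Y-linked reads, where 2 AhR-/- libraries remain, the calls were lost, with Il1rl1 at -2.53, Crlf2 at -2.39 and Il2ra at -1.98 (adjusted p = 0.202 each).

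Of 7 regulatory T cell genes, 5 were higher and 2 lower after HDM in WT, 3 and 1 in AhR-/-, and 4 and 1 in CYP1B1-/-. Of those called higher, 2, 1 and 1 also passed the filter at steady state, of 4 that did. Ctla4, an inhibitory receptor that passed it only through HDM libraries, was at 4.93 (SE 0.84, adjusted p = 7.97e-05) in WT and at 4.89 (SE 0.95, adjusted p = 0.00163) in AhR-/-, whereas the transcription factor genes Ikzf2 and Ikzf4 fell by 1.18 (SE 0.33, adjusted p = 0.00656) and 1.17 (SE 0.31, adjusted p = 0.00412) on the log2 scale in WT. Of 10 genes of naive or memory T cells, 6, 8 and 7 were higher in the 3 genotypes and 0 lower, of which 5, 7 and 6 also passed the filter at steady state, of 9 that did. Itgae was counted at 124 to 293 CPM in WT HDM libraries against 0.322 to 1.11 CPM in WT at steady state, and was called lower in AhR-/- than in WT after HDM at -3.93 (SE 0.94, adjusted p = 0.0261). With only libraries without Y-linked reads it was at -3.16 (SE 1.05, adjusted p = 0.202). In that comparison 3 of the 10 genes were called lower and 0 higher, beside 12.9% of all genes called lower, the others being the chemokine receptor Cxcr3 (-2.27, adjusted p = 0.0261) and the IL-7 receptor Il7r (-1.75, adjusted p = 0.0486). The lists were described by counts and medians and were not tested as sets.

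Markers of other leukocytes differed between the states in part. All 7 tested pan-leukocyte genes were higher after HDM in each genotype, and their summed level ran from 1520 to 4725 CPM in WT HDM libraries, from 137 to 950 CPM in those labelled AhR-/-, from 271 to 4793 CPM in those labelled CYP1B1-/- and from 26.6 to 210 CPM at steady state, with none of the markers at 0 in a whole group. The 10 macrophage genes summed to 399 to 927 CPM in WT after HDM against 222 to 314 CPM in WT at steady state. In AhR-/- HDM libraries they summed to 132 to 325 CPM in replicates 1, 3 and 4 and to 4655 CPM in replicate 2, against 256 to 279 CPM at steady state, and Chil3, a chitinase-like protein of activated macrophages, reached 4370 CPM in that group. Of these 10 genes, 5 were called higher after HDM and 0 lower in WT, 7 and 1 in AhR-/-, and 7 and 1 in CYP1B1-/-. Of those called higher, 4, 5 and 5 also passed the filter at steady state, of 8 that did. Cd68, a lysosomal protein of macrophages, was among the higher genes at 4.38 (SE 0.91, adjusted p = 6.56e-04) in WT, and the lower gene was Csf1r, the receptor of the macrophage growth factor, in AhR-/- (-1.55, SE 0.44, adjusted p = 0.0151) and CYP1B1-/- (-1.21, SE 0.44, adjusted p = 0.0348). Csf1r alone gave most of the summed macrophage level at steady state. It lay at 197 to 276 CPM in WT at steady state and at 58.6 to 195 CPM in WT after HDM. Cd68 lay at 0.271 to 5.61 CPM and at 18.5 to 72.0 CPM in the same libraries. Ms4a2, a chain of the IgE receptor of mast cells and basophils, was called lower in WT (-1.95, SE 0.70, adjusted p = 0.0298). Of 6 neutrophil genes, 1 was called higher in each genotype and 0 lower, Cxcr2 in WT (2.51, adjusted p = 0.0278) and Retnlg in AhR-/- (4.84, adjusted p = 0.0108) and CYP1B1-/- (3.12, adjusted p = 0.0441). Of 4 tested eosinophil genes, 3, 2 and 1 were called higher in WT, AhR-/- and CYP1B1-/- and 0 lower, and of 7 B cell genes 6, 4 and 5 were called higher and 0 lower. Only 1, 1 and 0 of these eosinophil calls were of genes that also passed the filter at steady state, of 2 that did. For the B cell calls these were 5, 3 and 5, of 6 that did. The B cell genes summed to 33.3 to 127 CPM in WT after HDM, 9.19 to 117 CPM in AhR-/- after HDM and 4.14 to 37.8 CPM at steady state. Of the pan-leukocyte genes, 4 of 7 were called lower in AhR-/- than in WT after HDM, where 12.9% of all genes were called lower. Coro1a, a leukocyte actin-binding protein, was at -3.52 there and at -2.68 (adjusted p = 0.210) with only libraries without Y-linked reads. The 11 lung epithelial genes summed to 2754 to 18995 CPM in WT after HDM, 19690 to 66318 CPM in AhR-/-, 3535 to 30786 CPM in CYP1B1-/- and 10154 to 24945 CPM at steady state. The part of these levels in the T and NK cell comparisons was not tested.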

How the data were processed

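RNA-seq was made from CD45-CD31-EpCAM+ lung cells of 22 libraries in 6 groups, taken from the labels. The authors deposited raw gene counts, 1 table per state, which the submitters' processing notes tie to bcl2fastq 2.19.1, GSNAP, featureCounts 2.0.0 and GRCm38 (mm10). The study's methods name Ensembl release 99 for the annotation; the strand setting is not given in the sources used here. Of 54373 gene IDs, 54147 matched GENCODE M21, and the 21793 protein-coding genes were tested. Genes were kept by edgeR's filterByExpr, scaled by TMM and tested with edgeR 4.0.16 (quasi-likelihood, robust; R 4.3.3), with Benjamini-Hochberg adjustment over all genes tested (15547 at steady state, 14161 after HDM, 16639 jointly) and a threshold of 0.05. The test was checked on simulated counts. Each SE is the absolute log2 fold change over the square root of F. For CPM, TMM library sizes were computed once, jointly for the 22 libraries. Correlations use log2 CPM with a prior count of 1. Named genes were the members, per list the 3 of highest mean CPM and up to 3 called by lowest p, and the 6 most like the CD3 genes. The members and lists were chosen with earlier results of these data known. Alternatives were the likelihood ratio test, DESeq2 1.42.0, RLE scaling, no filter, removal of the dominant predicted genes (each at least 1% of a library), a replicate block and subsets of libraries. No library was identical to another.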

Additional observations from a re-analysis of the deposited data

Results flagged for a closer look

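In each group of 4 libraries, the log2 CPM of each of the 10 genes was checked with Dixon's test for 1 library that stands apart from the other 3. Of 40 such sets, 0 passed, where chance flags about 1 in 20. The HDM libraries of WT and AhR-/- lay as 2 pairs, a pattern that this test does not detect.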

How the results depend on the processing

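Between AhR-/- and WT after HDM, the 1 call (Cd8a) became 0 with no filter, without the dominant predicted genes, with the replicate block, with only libraries without Y-linked reads and with only libraries of at least 4000000 coding counts outside the dominant predicted genes (added after seeing the data, 6 HDM libraries left out), and ranged from 0 to 1 without single libraries. Its log2 fold change in these 5 fits was -1.53, -1.52, -1.50, -1.24 and -1.04 (adjusted p = 0.0784, 0.0503, 0.0927, 0.261 and 0.245), beside -1.55 as reported. The 3129 genes called there became 1802, 1, 0 and 316 with no filter, the block, no Y-linked reads and the depth minimum, and 0 to 4137 without single libraries. For HDM in AhR-/-, 0 members and 724 genes were called with only Y-linked libraries, 2064 genes with the block (5 members, Cd8a lost at 2.52, adjusted p = 0.0824), and 2 to 6 members and 1532 to 3935 genes without single libraries. For HDM in CYP1B1-/-, 3702 genes were called with the block and 3 to 6 members without single libraries, and for HDM in WT 5 to 6 members. At steady state, genes called in AhR-/- were 11 by the likelihood ratio test, 12 by DESeq2 and 0 to 1 without single libraries, and in CYP1B1-/- 5 by DESeq2, 0 with the block and 0 to 4. For CYP1B1-/- after HDM, both other tests called 1 gene. The AhR-/- interaction called 287 genes by the likelihood ratio test, 1221 by DESeq2, 3 with the block, 140 with the depth minimum and 0 to 1017 without single libraries, the CYP1B1-/- interaction 0 to 1. Log2 fold changes between AhR-/- and WT after HDM turned positive for Cd3d (0.38), Cd3g (0.12), Lck (0.12), Nkg7 (0.31) and Gata3 (0.33) without Y-linked libraries, and for Cd3d (0.79), Cd3e (0.25), Cd3g (0.78), Cd4 (0.42), Lck (0.55), Nkg7 (0.52) and Gata3 (0.70) at the depth minimum. Without single libraries they ranged from -0.91 to 0.48 for Cd3d, -1.10 to 0.25 for Cd3g, -1.83 to 0.058 for Cd4, -1.15 to 0.16 for Lck, -0.93 to 0.23 for Nkg7 and -0.83 to 0.036 for Gata3. For CYP1B1-/- after HDM, Cd8a turned to 0.0049 with no filter and 0.58 at the depth minimum (-0.31 to 0.19 without single libraries), Cd4 to 0.23 and Gata3 to 0.17 at the depth minimum (Gata3 -0.31 to 0.11). For HDM in AhR-/-, Gata3 turned to -0.0021 with the block and, with Cd3e at -1.33, to -1.48 with only Y-linked libraries (-0.39 to 0.39 and -0.0088 to 1.70 without single libraries). Lck at steady state ranged from -1.23 to 0.088 in AhR-/- and -1.29 to 0.14 in CYP1B1-/-. The cause was not tested. Deviations of same-numbered libraries correlated at -0.48 to 0.681 after HDM (4 of 12 pairs over 0.1) and at -0.0222 to 0.246 at steady state (4 of 8). The highest after HDM were those of WT with AhR-/- replicate 1 (0.681) and with CYP1B1-/- replicates 2 (0.625) and 3 (0.568). No values of differently numbered libraries stand beside these, so whether replicate numbers pair libraries is not settled. Depth limits Il13 and Il5 and, for most members, AhR-/- HDM replicate 3, where 1 to 3 counts set a level.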

Other observations

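The 10 genes whose log2 CPM over the 12 HDM libraries was most like that of Cd8a, out of 14160 others, were Lcp2 (Pearson r = 0.976), an adaptor of T cells and myeloid cells, Srgn (0.960), a granule proteoglycan, Plek (0.960), a platelet and leukocyte protein, Unc93b1 (0.960), which escorts endosomal Toll-like receptors, and Spi1 (0.958), the transcription factor PU.1 of myeloid cells and B cells, beside Dsn1, Stx2, Ripk3, Ubtf and Trim7. Among the members, Cd3e stood at rank 3036 and Cd3d at rank 6072. The genes were read after their values were seen, and the correlations are given without a test.

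Flt3, a growth factor receptor of dendritic cells, was counted at 215, 87.5, 283 and 231 CPM in WT HDM replicates 1 to 4, at 30.0, 13.9, 1.82 and 2.83 CPM in AhR-/- HDM libraries and at 98.7, 3.17, 265 and 203 CPM in those labelled CYP1B1-/-. Steady-state levels lay between 1.05 and 3.09 CPM. WT replicate 2 held the highest CD3 sum and the lowest Flt3 level of the 4 WT libraries. WT replicate 1 held a CD3 sum of 23.9 CPM and a Flt3 level below those of replicates 3 and 4. Over the 12 HDM libraries Flt3 correlated with the CD3 mean at r = 0.422.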
